A study of Mus musculus with 4 samples.

Results

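In mouse embryonic stem cells, 29369 stretches of accessible DNA were listed in both genotypes before differentiation and, at day 5 of neural differentiation, only in cells without the phosphatase genes Cdc14a and Cdc14b. They were chosen by the measured peaks themselves: peaks of the 4 libraries that overlap by 1 bp or more were merged, and a merged region was selected on having a peak in the knockout at day 5, the knockout at day 0 and the wild type at day 0, and none in the wild type at day 5. They made up 8.94% of the 328597 merged regions of the series. Of the 164833 regions with a peak in both day 0 libraries, called day 0 regions here, they made up 17.8%, and this share describes the choice and is no finding. Their absence from the wild type at day 5, and their presence in the other libraries, is likewise what chose them.

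Accessibility was measured by single-nucleus ATAC-seq, an assay in which a transposase inserts into open chromatin of isolated nuclei, run together with RNA sequencing of the same nuclei. The groups were Cdc14ab KO cells (KO) after 5 days of neural differentiation, KO cells at day 0, wild-type cells (WT) after 5 days and WT cells at day 0, with 1 library each, so nothing below has a replicate check and the regions of a library are not replicates. Day 0 cells were in medium with the cytokine LIF, and day 5 cells in N2B27 medium with the growth factors EGF and FGF2. All groups were derived from blastocysts, were grown on feeder cells that were removed by passage on gelatin, went through dead cell removal and carry clone number 3 in the labels, so a difference between cell lines and an effect of the knockout cannot be told apart.

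A stem cell held in LIF keeps its enhancers open through factors such as OCT4, SOX2, NANOG and ESRRB, and many of these distal elements close when the cells leave pluripotency. Promoters rich in CpG dinucleotides, by contrast, tend to stay open in most cell types. CDC14 phosphatases remove phosphates that cyclin-dependent kinases add, and in budding yeast Cdc14 drives the exit from mitosis.

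Promoters were rare among the regions kept only in KO, and those of 4 pluripotency genes are printed because, among genes of the core and naive pluripotency lists, theirs are the listed promoter windows that such a region overlapped. Each sequence is RefSeq's for GRCm38.p6, whose coordinates are those of mm10, from 250 bases before to 50 after a listed transcript start and 5′ to 3′ on the gene's strand. Capitals mark matches on either strand to the SOX-type motif CATTGT or the NFY motif CCAAT.
Lin28a, chr4:134018767-134019066, minus strand: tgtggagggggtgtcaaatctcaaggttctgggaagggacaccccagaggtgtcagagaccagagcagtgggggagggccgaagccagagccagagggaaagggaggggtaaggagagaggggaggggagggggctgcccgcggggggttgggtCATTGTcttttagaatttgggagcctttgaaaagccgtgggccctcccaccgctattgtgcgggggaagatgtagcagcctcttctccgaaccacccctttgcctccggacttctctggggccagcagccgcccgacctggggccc
Tcl1, chr12:105222688-105222987, minus strand: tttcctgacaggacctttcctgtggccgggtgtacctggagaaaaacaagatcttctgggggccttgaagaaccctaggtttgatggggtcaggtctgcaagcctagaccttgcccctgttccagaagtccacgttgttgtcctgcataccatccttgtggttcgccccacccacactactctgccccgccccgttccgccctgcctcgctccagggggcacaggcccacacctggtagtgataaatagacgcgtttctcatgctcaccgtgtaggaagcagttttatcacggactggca
Lifr, chr15:7140292-7140591, plus strand: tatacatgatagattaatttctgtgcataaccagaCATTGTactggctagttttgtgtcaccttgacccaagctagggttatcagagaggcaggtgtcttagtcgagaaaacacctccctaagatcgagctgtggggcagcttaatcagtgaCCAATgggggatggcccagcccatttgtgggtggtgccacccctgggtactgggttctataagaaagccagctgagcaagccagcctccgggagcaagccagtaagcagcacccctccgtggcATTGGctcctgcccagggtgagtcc
Pou5f1, start at base 35508807, chr17:35508557-35508856, plus strand: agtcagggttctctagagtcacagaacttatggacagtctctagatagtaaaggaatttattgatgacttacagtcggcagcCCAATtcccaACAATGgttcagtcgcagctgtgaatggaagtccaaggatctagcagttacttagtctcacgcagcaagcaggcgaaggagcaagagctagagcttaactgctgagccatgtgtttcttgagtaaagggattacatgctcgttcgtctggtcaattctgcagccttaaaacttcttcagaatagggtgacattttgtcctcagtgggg

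These windows differ in how fully a region covers them. At Lin28a, which encodes an RNA-binding protein that blocks maturation of the let-7 microRNAs, all 300 bases lay under a peak from 134018589 to 134019500 in KO at day 5, from 134018587 to 134019473 in KO at day 0 and from 134018626 to 134019480 in WT at day 0. The nearest WT day 5 peak was 1.02 kb away. At Tcl1, a co-activator of the AKT kinase that is active in naive stem cells, the peaks ran from 105222440 to 105223329 in KO at day 5, from 105222475 to 105223345 in KO at day 0 and from 105222420 to 105223352 in WT at day 0, and the nearest WT day 5 peak was 1.12 kb away. The 3 lists thus placed peaks with nearly the same edges over both starts.

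Lifr, which encodes a subunit of the LIF receptor, had such a region over a start inside the gene, with peaks of 869 bp in KO at day 5, 895 bp in KO at day 0 and 881 bp in WT at day 0, and a further one within 1 kb of that start (7141012 to 7141950). At Pou5f1, which encodes OCT4, the region from 35507585 to 35508600 covers 44 of the 300 bases at the second of the gene's listed starts, and lies inside the gene. No listed promoter window of a formative gene lay under such a region, but 6 of the 13 formative genes (Etv4, Fgf15, Pou3f1, Sox3, Wnt8a and Zic2) have none in the table used. Of the 10 motifs searched, the Lin28a window holds 1 SOX match, Lifr 1 SOX and 2 NFY matches, Pou5f1 1 of each and Tcl1 none. A match is a description of letters and is not a binding site.

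The WT day 5 library, whose lack of a peak defines every member, stood apart from the other 3 at Y-linked genes. It had a peak within 1 kb of either end of each of Eif2s3y, Uty and Ddx3y. KO at day 5, KO at day 0 and WT at day 0 had 0 there, and Kdm5d had 0 in each library. Peaks on the whole Y chromosome numbered 14 in KO at day 5, 16 in KO at day 0, 20 in WT at day 5 and 16 in WT at day 0. The part of this library's origin in the results was not tested. The lists held 227878 peaks in KO at day 5, 222257 in KO at day 0, 189571 in WT at day 5 and 198860 in WT at day 0, and covered 197.3, 190.3, 162.5 and 168.8 Mb in that order. Since the lists carry no counts, depth is unknown, and the WT day 5 list is the shortest. A peak lay within 1 kb of a listed start, or of a gene end where none was listed, of each of the pluripotency markers Pou5f1, Nanog, Sox2, Zfp42 and Esrrb in all 4 libraries, and the same held for the neural progenitor markers Pax6, Sox1, Nes, Hes5 and Fabp7. Of 7 fibroblast markers, 7 had a peak near a start or end in KO at day 5, KO at day 0 and WT at day 5, and 6 in WT at day 0. Of 5 endoderm markers, 5 had one in KO at day 5, 4 in KO at day 0, 4 in WT at day 5 and 3 in WT at day 0, and Gata4 had one in KO at day 5 alone. No start was listed for Col1a1, Thy1, Pdgfrb, Sox17, Gata4, Gata6 and Sox7, so their peaks can lie at 3′ ends.

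Day 0 regions took 4 fates at day 5. Besides the 29369 kept only in KO (17.8%, 95% exact binomial interval 17.6 to 18.0), 5603 were kept only in WT (3.399%, 3.31 to 3.49), 111046 were kept in both (67.4%) and 18815 in neither (11.4%). Regions kept only in KO were thus 5.24 times as many as regions kept only in WT. Read from the loss, KO still listed 61.0% (60.5 to 61.4) of the 48184 day 0 regions that WT lacked at day 5, and WT still listed 22.9% (22.4 to 23.5) of the 24418 that KO lacked. In peak lists made over all nuclei of a library, fewer cells with an open region and less opening per cell cannot be told apart. The intervals, all exact Clopper-Pearson ones, cover counting error only. When each library was cut to its 189571 widest peaks, the ratio of 5.24 fell to 2.03, with 22031 regions kept only in KO and 10852 only in WT.

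In regions kept only in KO, the 3 libraries covered nearly the same bases, which was not measured in regions of other fates. Of the regions kept only in KO, 28323 (96.4%) held exactly 1 peak from each of the 3 libraries, and the merged region had a median of 957 bp, from 362 to 2824 bp. The stretch covered in all 3 libraries had a median of 791 bp (quartiles 712 and 841), and in 115 regions (0.392%) the 3 peaks had no base in common. Their peaks had median widths of 871 bp in KO at day 5, 875 bp in KO at day 0 and 868 bp in WT at day 0, against 889, 885 and 882 bp in regions kept in both. Medians at day 0 were 864 bp in KO and 859 bp in WT for regions kept only in WT. They were 859 bp in KO and 852 bp in WT for regions kept in neither.

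Narrow day 0 peaks were kept only in KO more often than those of medium width. By the width of the WT day 0 peak, 22.5% (21.9 to 23.2) of the narrowest decile were kept only in KO, against 13.6% (13.1 to 14.2) of the eighth decile, 902 to 914 bp wide, and 16.04% of the ninth, and the interval of the widest decile ran from 18.4 to 19.6%. Regions kept only in WT made up 5.45, 2.33, 2.89 and 3.34% of these deciles. Regions kept in neither made up 22.5% of the narrowest decile and 7.18% of the eighth. Of the day 0 regions that WT lacked at day 5, KO therefore kept a smaller part of the narrowest decile, 50.01% (48.9 to 51.2), than of the eighth, 65.5% (63.9 to 67.1). The longest stretches covered in all 3 libraries were 1507 bp within chr1:119159896-119161744, 1477 bp within chr18:36486231-36487994, 1467 bp within chrX:41956853-41958792, 1435 bp within chr11:106633215-106635042 and 1429 bp within chr19:30114712-30116301. The last lies in Gldc, a gene of the glycine cleavage system, and the other 4 overlap no protein-coding gene.

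The rule draws its line at a single base of overlap. The nearest WT day 5 peak was a median of 2.65 kb from a region kept only in KO, within 100 bp of 664 (2.26%) and within 500 bp of 3811 (13.0%). Just outside the rule, in regions kept in both, the WT day 5 peak overlapped another library's peak by 10 bp or less in 5 regions and by 100 bp or less in 64 (0.0576%), with a median overlap of 862 bp.

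Regions kept only in KO lay mostly away from gene starts. Within 1 kb of a start of a protein-coding gene were 1031 of 29366 on assembled chromosomes (3.51%, 3.30 to 3.73), against 5.75% of regions kept only in WT, 15.6% of those kept in both, 4.46% of those kept in neither and 11.8% of all day 0 regions. Gene bodies held a further 48.6% of them and intergenic DNA 47.9%. Their median distance to a start was 26.4 kb, against 23.3 kb for regions kept only in WT, 18.7 kb for those kept in both and 21.9 kb for those kept in neither.

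**Figure D1:**
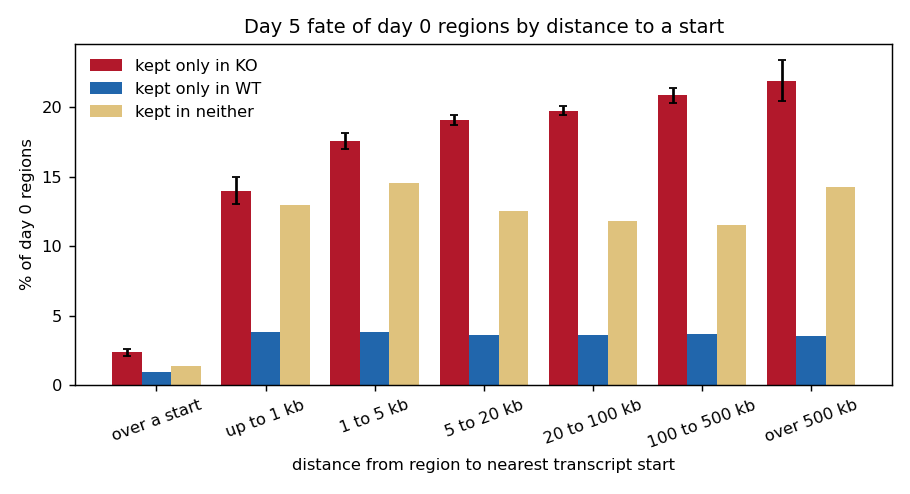
Share of day 0 regions (%, vertical axis) kept only in KO, only in WT or in neither, by distance to the nearest transcript start. The bars for KO, with 95% exact intervals, run from 2.33% over a start to 21.9% beyond 500 kb.

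The share kept only in KO grew with distance from a start, as the plot by distance shows. It was 2.33% for regions over a start, 14.0% up to 1 kb, 17.6% from 1 to 5 kb, 19.1% from 5 to 20 kb, 19.8% from 20 to 100 kb, 20.9% from 100 to 500 kb and 21.9% beyond. Of the regions over a start, 95.4% were kept in both. Among the day 0 regions that WT lacked at day 5, KO kept 63.0% of those over a start, 52.0% of those up to 1 kb away, 54.7% of those from 1 to 5 kb and 64.5% of those from 100 to 500 kb, and the values of the other distances lay between these. The 3 regions kept only in KO that lay farthest from a protein-coding gene were chr18:27728688-27729671 at 1974 kb, chr8:51595722-51596871 at 1915 kb and chr8:51598482-51599303 at 1912 kb.

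Few promoters were kept only in KO, and those few were poorer in CpG than promoters kept in both, as were those kept only in WT or in neither. Of 11863 protein-coding genes with a promoter window over a day 0 region, 242 had one over a region kept only in KO (2.04%, 1.79 to 2.31), 95 over one kept only in WT, 11527 over one kept in both and 124 over one kept in neither. At 181 of the 242 genes (74.8%) every day 0 region over a promoter window was kept only in KO. The rest also count under another fate, so the groups share some genes. The ratio of observed to expected CpG had a median of 0.329 (quartiles 0.189 and 0.482) at the 242 promoters, against 0.304 where the region was kept only in WT, 0.754 where it was kept in both, 0.287 where it was kept in neither and 0.173 where there was no day 0 region. A ratio above 0.6 was reached by 12.4% of the 242, against 28.4% of the promoters kept only in WT, 71.6% of those kept in both, 12.9% of those kept in neither, 5.92% of those without a day 0 region and 48.3% of all promoters. The 4 promoters printed above have ratios of 0.351 for Lin28a, 0.462 for Tcl1, 0.188 for Lifr and 0.388 for Pou5f1.

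**Figure D2:**
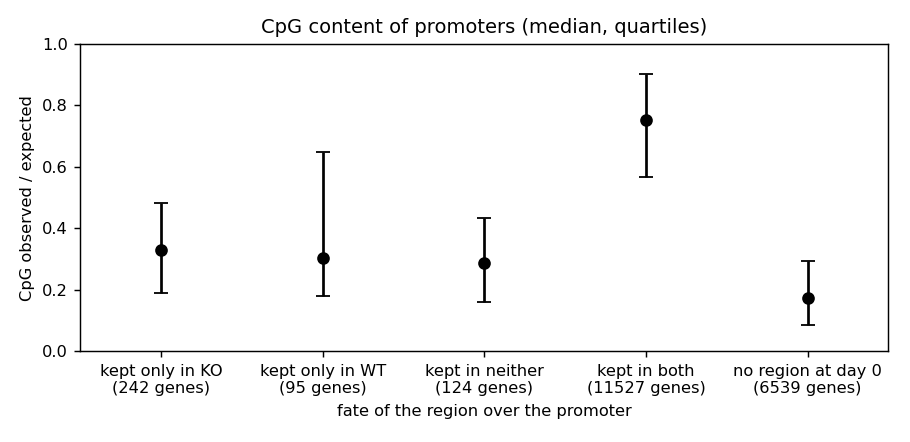
Observed over expected CpG (vertical axis) of promoter windows grouped by the fate of the day 0 region over them, as medians with quartile bars. The 242 promoters kept only in KO have a median of 0.329 and the 11527 kept in both one of 0.754.

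Motifs that contain a CpG were in a smaller share of these promoters, and of those kept only in WT or in neither, than of promoters kept in both. The ETS motif TTCCGG was found in 7.02% of the 242 promoters (4.15 to 11.01), against 7.37% where the region was kept only in WT, 8.87% where it was kept in neither, 26.998% where it was kept in both and 19.1% of all. The YY1 motif AAGATGGCG was in 0 of 242 (exact interval up to 1.51%), against 2.91% of those kept in both and 1.94% of all. The NRF1 motif GCGCATGCG was in 2 of 242 (0.826%, 0.100 to 2.95), against 3.65% where kept in both and 2.41% of all, which the interval contains. The YY1 and NRF1 motifs were in 0 of the 95 promoters kept only in WT and 0 of the 124 kept in neither. The E-box CACGTG was in 6.61% (3.83 to 10.51), against 4.21% where kept only in WT and 6.45% where kept in neither. It was in 10.4% where kept in both and 7.90% of all, and the interval contains both values. The ESRRB motif TCAAGGTCA was in 3 of the 242 (1.24%, 0.256 to 3.58), against 1.05% of promoters kept only in WT, 0 of those kept in neither, 0.208% of those kept in both and 0.332% of all. The remaining shares were for the SOX motif (10.7%, against 6.89% where kept in both and 11.4% of all), the KLF motif GGGNGTGG (21.1, 23.5 and 19.2%), the octamer ATGCAAAT (1.24, 1.56 and 1.71%), NFY (34.3, 38.8 and 39.0%) and the AP-1 motif TGANTCA (7.85, 4.71 and 7.08%). Both strands were searched, motifs were counted separately even where they overlap, and a lack of matches says only that these letters are not in the window.

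Around the core pluripotency genes, as around those of several other lists, every locus held at least 1 region kept only in KO. Within 50 kb of these 12 genes, 52 of 274 day 0 regions were kept only in KO (18.98%, 14.5 to 24.1) and 6 only in WT, and the median over genes was 20.2%. The 16 naive pluripotency genes had 67 of 361 (18.6%, 14.7 to 23.0) kept only in KO and 10 only in WT, again with at least 1 at each gene and a median of 21.4%. Over the 20192 protein-coding genes with a day 0 region within 50 kb, 83.9% had at least 1 and the median share was 14.3% (quartiles 7.14 and 22.2). At least 1 such region also lay near each of the 16 mitosis, 13 formative, 10 blood and endothelium and 24 LIF, FGF and Wnt signalling genes. Set against the 17.8% over all day 0 regions, the pooled shares of both pluripotency lists are near the background. Neither these shares, nor the medians, nor the presence of a region at every gene is a result about pluripotency genes.

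Counts at single loci rest on few regions and carry no interval. Here and below they are a description beside the 17.8% over all day 0 regions, and whether loci differ was not tested. Within 50 kb of Esrrb, which encodes a nuclear receptor of naive stem cells, 11 of 47 day 0 regions were kept only in KO, 7 of them inside the gene. Within 50 kb of Pou5f1 the count was 7 of 29, of Nanog 6 of 28, of Sox2 4 of 21 and of Sall4, a zinc finger partner of OCT4, 8 of 32. Such windows can hold other genes, and the region chr17:35532246-35533123 counted at Pou5f1 overlaps the promoter window of Psors1c2. Zfp42, whose protein REX1 marks the naive state, had 7 of 23. The neighbours Dppa2 and Dppa4, which encode chromatin regulators of early development, had 6 of 19 and 6 of 17, with 5 of these regions in common. Some of the regions at these loci lay close to a WT day 5 peak. At Pou5f1 the gaps were 0.144, 0.283, 0.411, 0.5, 1.01, 1.11 and 2.72 kb. Gaps ran from 0.163 to 4.26 kb at Nanog, from 0.354 to 9.07 kb at Esrrb and from 0.256 to 20.4 kb at Dppa2 and Dppa4. The median over all regions kept only in KO was 2.65 kb.

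**Figure D3:**
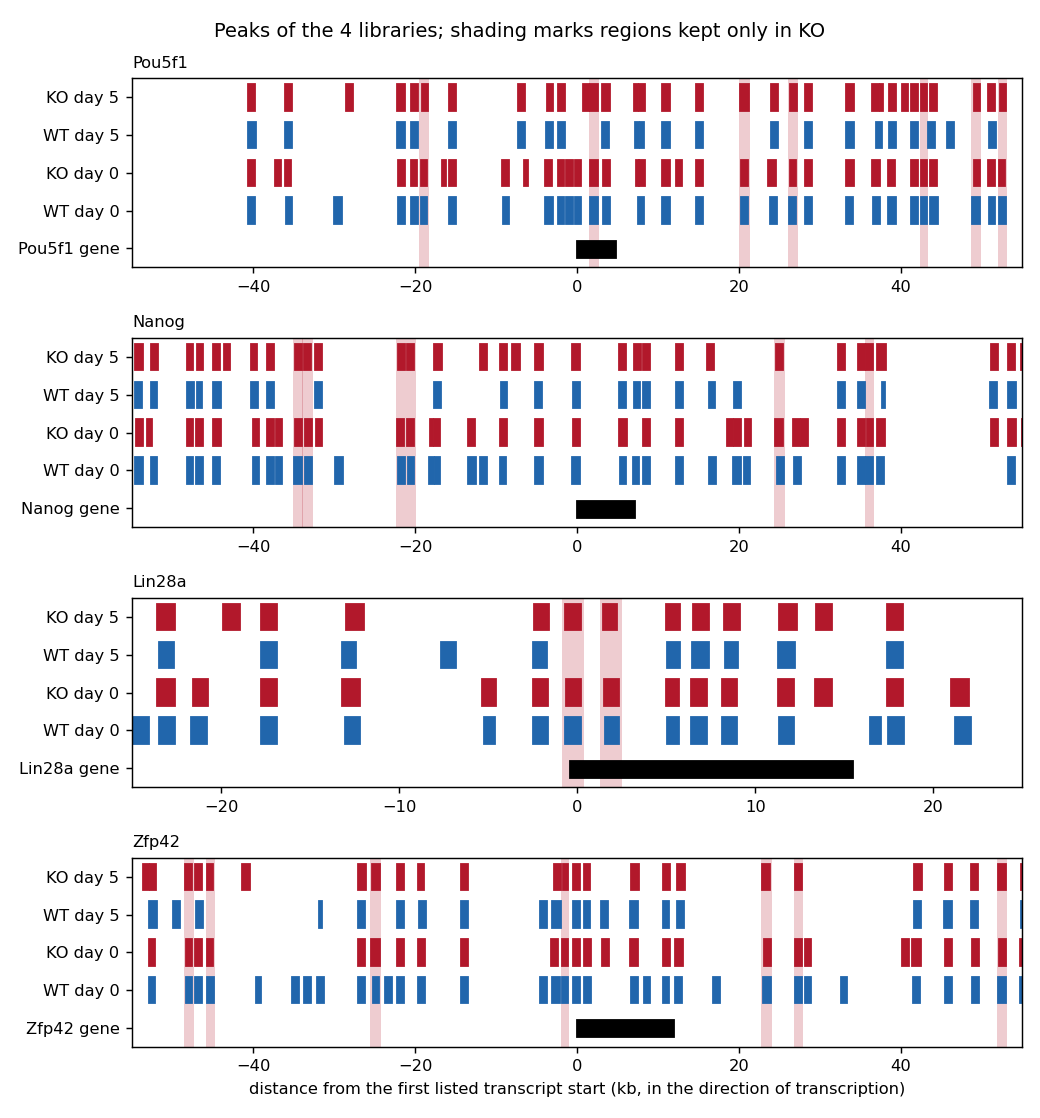
Peaks (boxes) of each library around Pou5f1, Nanog, Lin28a and Zfp42, by distance from the first listed transcript start in kb in the direction of transcription, with the gene in black. Shading marks the regions kept only in KO, which number 7 around Pou5f1, 6 around Nanog, 2 around Lin28a and 7 around Zfp42.

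At Nanog, as the map of the 4 loci shows, the 6 regions came largely in pairs upstream of the start. A pair was centred 34.5 and 33.3 kb upstream (chr6:122672477-122673480 and chr6:122673689-122674698) and the other 21.8 and 20.6 kb upstream (chr6:122685250-122686202 and chr6:122686494-122687379), and the remaining ones were 24.99 and 36.1 kb downstream. At Sox2 a region was centred 3.63 kb upstream of the start (chr3:34645898-34646835), with peaks from 34645962 to 34646835 in KO at day 5, from 34645898 to 34646803 in KO at day 0 and from 34645941 to 34646823 in WT at day 0. At Zfp42 the nearest was 1.52 kb upstream of its start (chr8:43308167-43308901). At Esrrb the 2 nearest upstream regions were centred 16.8 and 31.0 kb from the start, and at 1 of the 11 (chr12:86414921-86416784) the 3 libraries shared just 22 bp.

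The count was 5 of 22 for Tfcp2l1, 5 of 20 for Prdm14, 4 of 26 for Tbx3, 2 of 10 for Klf4, 3 of 20 for Utf1 and 2 of 25 for Lin28a. Further core and naive genes were named after their values were seen. Among these, Klf5 had 1 of 28, Tdgf1 1 of 21, Tcl1 1 of 10, Nr0b1 1 of 3 and Stat3 1 of 30, while Zfp281 had 7 of 28 and Dppa3 6 of 31. Genes of the formative stage, which follows the naive one, had 51 of 293 (17.4%) kept only in KO and 12 only in WT, with a median over genes of 15.4%. Among them Otx2 had 4 of 21, the DNA methyltransferase gene Dnmt3b 2 of 22 and Fgf5 1 of 9.

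Around neural progenitor genes a smaller share of day 0 regions was kept only in KO than around the other 17 lists, which is a description with no test. The count was 28 of 313 (8.95%, 6.03 to 12.7), with 14 kept only in WT (4.47%), a median over genes of 8.01% and 16 of 20 genes with at least 1. Pax6, a regulator of eye and forebrain, had 1 of 16, the intermediate filament gene Nes 1 of 24 and Sox1 2 of 14. A larger part of these regions, 246 of 313, was kept in both. Among the 53 that WT lacked at day 5, KO kept 52.8% (38.6 to 66.7), and among all day 0 regions 61.0%. Neuron genes had 34 of 283 (12.01%) and housekeeping genes 39 of 305 (12.8%).

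**Figure D4:**
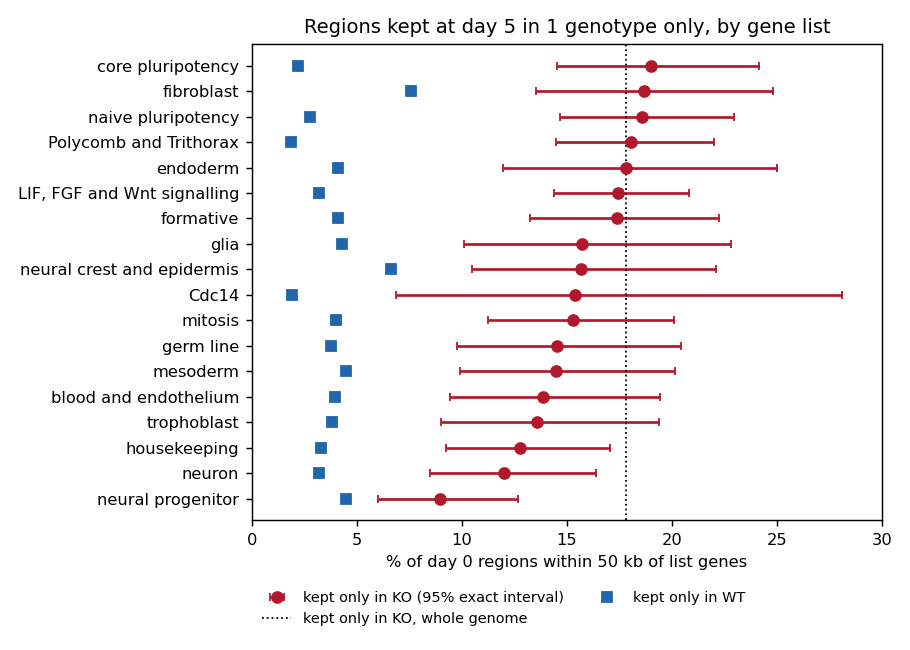
Share of day 0 regions within 50 kb of the genes of each list (%, horizontal axis) kept only in KO, with 95% exact intervals, and kept only in WT. The share kept only in KO runs from 8.95% for neural progenitor genes to 18.98% for core pluripotency genes, beside the dotted line at 17.8% for all day 0 regions.

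In the plot of the 18 lists, the interval contained the share of all day 0 regions in 15 lists and lay below it in 3, those of neural progenitor, neuron and housekeeping genes. These intervals cover counting error only and treat regions as independent, so the sorting is a description with no test. Genes of LIF, FGF and Wnt signalling had 98 of 562 (17.4%). The largest counts were at Tcf7l1, a repressor that acts in the Wnt pathway, with 11 of 50, and the ETS factor gene Etv5 with 10 of 29. Polycomb and Trithorax genes had 77 of 427 (18.0%), with the largest count at Jarid2, a cofactor of Polycomb complex 2, with 12 of 53. The targeted genes Cdc14a and Cdc14b had 8 of 52 (15.4%, 6.88 to 28.1), and a peak there marks open DNA and does not check the deletion. In each list more regions were kept only in KO than only in WT. With equal numbers of peaks this turned round for neural progenitor (19 against 30), fibroblast (23 against 28), formative (27 against 28), trophoblast (14 against 17) and housekeeping genes (20 against 24), and the Cdc14 genes had 4 of each.

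Fibroblast genes were included because feeder cells are fibroblasts. Within 50 kb of 16 such genes, 37 of 198 day 0 regions were kept only in KO (18.7%, 13.5 to 24.8) and 15 only in WT (7.58%), and 11 of the 16 genes had at least 1. Within 10 kb the share kept only in KO was 9.09%. The part of feeder cells in these values was not tested.

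Starts or ends of list genes rarely carried such a region. Besides Lin28a, Tcl1 and Lifr, regions kept only in KO lay over a start of Gfap, an intermediate filament gene of astrocytes, and of Krt14, a keratin gene of basal epidermis, and over an end of the N-cadherin gene Cdh2. Within 1 kb they lay beside Cdc14b (chr13:64275711-64276436), Dppa2, Dppa4, Sox3, Sox10, Thy1, Vim and the second Pou5f1 start. At Sox3, Sox10, Thy1, Dppa2, Dppa4 and Cdh2 no start was listed in the table used, and either gene end was taken, so these can be 3′ ends.

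The largest numbers were found in and around long genes. Magi1, which encodes a scaffold of cell junctions, had 25 of 87 day 0 regions kept only in KO within 50 kb of its 608 kb span, and the receptor phosphatase gene Ptprg had 23 of 75. They were followed by Gse1 with 22 of 101, Fry with 21 of 76, Auts2 with 21 of 83, Camta1 with 21 of 102, Smyd3 with 20 of 78, Mtus2 with 20 of 81, the T-cadherin gene Cdh13 with 20 of 83 and the teneurin gene Tenm4 with 19 of 74. The numbers kept only in WT at these 10 genes ran from 0 at Cdh13 to 7 at Magi1. The shares kept only in KO ran from 20.6% at Camta1 to 30.7% at Ptprg, against 17.8% of all day 0 regions. Genes were ranked by count, which favours loci with many day 0 regions, so the order is no result about these genes.

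After a region kept only in KO, the next day 0 region had the same fate slightly more often than after any day 0 region. The next day 0 region on the chromosome was also kept only in KO for 20.5% of them (20.04 to 20.97), against 15.1% after a region kept only in WT, 17.2% after one kept in both, 18.0% after one kept in neither and 17.8% after any. Of 29366, 18677 (63.6%) stood alone between day 0 regions of other fates, and 3459 (11.8%) were in runs of 3 or more. The shares expected at a background of 17.8% were not computed, so these shares are no result about spacing. The longest run had 10 over 833 kb (chr7:5287879-6120493), across Nlrp2, Nlrp4c and vomeronasal receptor genes from Vmn1r58 to Vmn1r65, with 0 WT day 5 peaks in between. A run of 9 lay on X (chrX:116127524-117299092) across Cpxcr1, H2ab2 and H2ab1, with 1 WT day 5 peak inside. Of the 4 runs of 7, that at Lyg1 (chr1:37933144-37962367, 29.2 kb) held 1 WT day 5 peak. The others overlapped no protein-coding gene and held 0 at chr9:72219784-72253797 (34.0 kb), 1 at chr11:48706808-48765223 (58.4 kb) and 3 at chr3:60106240-60260764 (155 kb).

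Day 0 regions with few neighbours were kept only in KO more often. The share was 20.2% (19.3 to 21.2) of those with no other day 0 region within 25 kb, 19.5% with 1 or 2, 18.3% with 3 to 5, 17.3% with 6 to 10, 15.99% with 11 to 15 and 14.5% (12.5 to 16.7) with 16 or more. The share kept only in WT ran from 2.61% to 3.59% over the same classes.

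Every autosome held more regions kept only in KO than only in WT. With a ratio of 5.24 over all day 0 regions this was to be foreseen and is no separate finding. The numbers on single autosomes were not recounted with equal numbers of peaks, where the ratio over all was 2.03. On the autosomes 17.7% of day 0 regions were kept only in KO, from 15.6% on chromosome 2 to 19.9% on chromosome 5. On X the share was 21.5% (20.2 to 22.8; 814 of 3789), and 54 (1.43%) were kept only in WT. The X chromosome held 6659 peaks in KO at day 5, 5565 in KO at day 0, 4112 in WT at day 5 and 4273 in WT at day 0, and the part of X dosage in its share was not tested. Of 13 day 0 regions on Y, 0 were kept only in KO (exact interval up to 24.7%) and 1 only in WT.

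**Figure D5:**
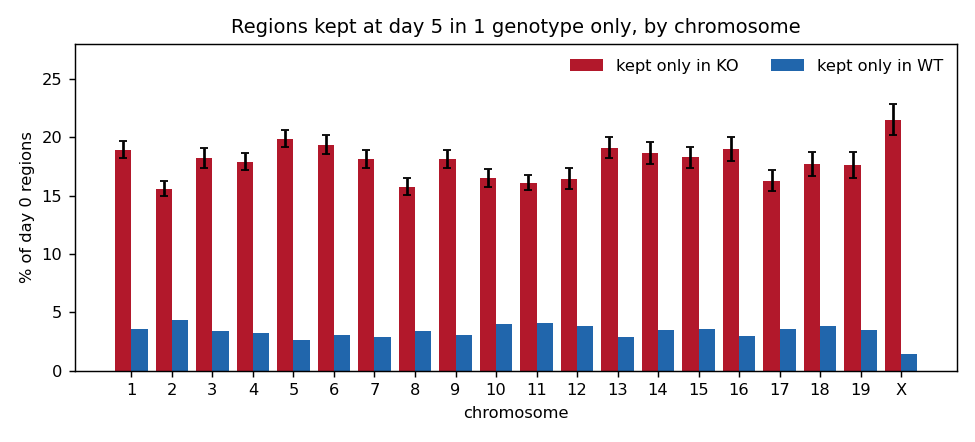
Share of day 0 regions (%, vertical axis) kept only in KO, with 95% exact intervals, and kept only in WT, on each autosome and X (horizontal axis), with Y not drawn. The KO bars run from 15.6% on chromosome 2 to 21.5% on X and stand above the WT bars on the 19 autosomes and X.

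Along the chromosomes, and as in the plot by chromosome, the spread was moderate. In 515 windows of 5 Mb with at least 50 day 0 regions, the share kept only in KO had a median of 17.9% and the central 90% of windows lay between 12.8 and 24.3%. Regions kept only in KO outnumbered those kept only in WT in 513 of the 515, which the ratio over all day 0 regions likewise made likely in advance. The highest window was on X from 80 to 85 Mb (32.7%, 17 of 52), followed by chromosome 1 from 0 to 5 Mb (30.1%, 28 of 93), chromosome 14 from 10 to 15 Mb (29.4%, 72 of 245), X from 75 to 80 Mb (28.7%, 31 of 108) and chromosome 16 from 80 to 85 Mb (28.6%, 22 of 77). The window on chromosome 14 contains Ptprg.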

How the data were processed

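The authors deposited 1 list of peaks for each of 4 single-nucleus ATAC-seq libraries, in 3 columns that give chromosome, start and end position, with no score or count. Per the file headers, cellranger-arc 2.0.0 called the peaks, separately for each library, with mm10 as the genome, and the submitters' processing notes also name Scanpy 1.7.2. Whether doublets were removed is not given in the sources used here. The number of nuclei and reads per library was not used.

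Peaks were merged across libraries where they shared at least 1 bp, and the code was tested on simulated data. Gene spans, starts and promoter sequences came from RefSeq tables of GRCm38.p6. Of 21887 protein-coding genes, 17492 had a listed start, and for the other 4395, those of chromosome 18 among them, both gene ends were used. Shares carry 95% exact binomial intervals. Python 3.11.15, pandas 2.3.3 and SciPy 1.17.1 were used. A region counted for a gene list when it lay within 50 kb of a gene's span.

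The members, gene lists and alternatives were chosen with earlier results of these data known. Named genes are 20 stem cell and neural genes, the 10 genes with most members (1 per 500 kb), list genes with a member at a start or end, and the leading regions, runs and windows. Other names were chosen after their values were seen. A motif analysis of the regions themselves was not run, because no genome sequence was used. Alternatives were other joining rules, equal numbers of the widest peaks, other windows, and autosomes only.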

Additional observations from a re-analysis of the deposited data

How the results depend on the processing

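Of 45 alternative values, 30 stayed and 15 moved, judged by the counting interval of the main value or, for counts, by 1.5 times. For the median width of WT day 0 peaks the bounds were looser, the quartiles of 810 and 905 bp. The number of regions kept only in KO ran from 22031 to 30216. Their share of day 0 regions was 17.4% with peaks within 200 bp joined, 18.1% with peaks trimmed to the central 500 bp, 18.2% with 50% reciprocal overlap and 15.5% without any day 5 peak of the other genotype within 500 bp. The ratio to regions kept only in WT was 5.66 in the last of these and 5.09 with single WT day 0 peaks. With the 189571 widest peaks of each library, the share was 15.1%, the ratio 2.03, the share within 1 kb of a start 2.43%, the share after a member 17.8%, the share on X 20.1% and the share at fibroblast genes 13.2%. Windows of 500 bp and 5 kb around starts gave 2.02 and 14.7%, and a window of 10 kb gave 9.09% at fibroblast genes. Windows hold fewer or more regions by construction, and for the other moves the cause was not tested. No paired analysis was possible because each group has 1 library and the results come from no test. For the same reason no library could be left out.

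The lists carry no read counts, and closed chromatin and shallow sequencing can both leave a peak out. The WT day 5 list, the shortest, is the one whose gaps define the regions. The widest peaks in equal numbers lower this imbalance but rank by width, which is not a signal. Overlapping gene windows count some regions under several genes.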

Other observations

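Among microRNA genes, which were chosen after their values were seen, a region kept only in KO lay over the miR-200b, miR-200a and miR-429 cluster. These microRNAs repress ZEB1 and ZEB2, transcription factors that promote the change from epithelial to mesenchymal cells. The mature 3p sequences are RefSeq's for GRCm38.p6, all on the minus strand, with the seed (bases 2 to 8) in capitals, and miR-200b-3p and miR-429-3p share theirs.
mmu-miR-200b-3p, chr4:156055685-156055706: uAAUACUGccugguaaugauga
mmu-miR-429-3p, chr4:156053916-156053937: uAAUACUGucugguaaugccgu
mmu-miR-200a-3p, chr4:156054911-156054932: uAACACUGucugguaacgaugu
The region (chr4:156054946-156055926) covered the whole Mir200b hairpin and part of the Mir200a hairpin, and Mir429 lay within 1 kb of it. Its peaks ran from 156054981 to 156055860 in KO at day 5, from 156054946 to 156055926 in KO at day 0 and from 156054971 to 156055887 in WT at day 0, and the nearest WT day 5 peak was 3.53 kb away. Within 50 kb of the cluster, 5 of 16 day 0 regions were kept only in KO and 0 only in WT. At the related Mir200c and Mir141 cluster the count was 0 of 17, at the stem cell cluster from Mir290a to Mir295 it was 2 of 27, and at Mir302a to Mir367 it was 2 of 16. Over all 1005 hairpins, 208 lay under a day 0 region. Of these, 24 (11.5%, 7.53 to 16.7) lay under one kept only in KO, a smaller share than the 17.8% of all day 0 regions. Among the 24 was Mir9-1, a microRNA gene of neural progenitors.

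Gene families, also chosen after their values were seen, differed in the share of day 0 regions within 50 kb kept only in KO. It was 29.1% at Vmn2r genes (53 of 182) and 27.4% at Vmn1r genes (54 of 197), both vomeronasal receptors, 22.9% at Nlrp genes, 21.0% at Olfr olfactory receptor genes, 17.8% at Zfp zinc finger genes, 13.0% at Cacn calcium channel genes and 8.94% at Hox genes (16 of 179). The share kept only in WT was 1.65% at Vmn2r, 2.54% at Vmn1r and 2.79% at Hox genes. Over all protein-coding genes it was 17.2% only in KO and 3.42% only in WT. Neighbouring family members share windows, and reads of near-identical copies can be lost or shared, so these values are uncertain.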
